A study of Mus musculus with 8 samples.

Results

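The 7 genes described here are the surfactant protein genes Sftpc, Sftpb, Sftpa1 and Sftpd and the secretoglobin genes Scgb1a1, Scgb3a1 and Scgb3a2, out of 17921 genes counted. They were taken by name, and each was followed through the deposited cell type labels and the numbered clusters of structural cells in each mouse, with T cells and NK cells as the cells in which free RNA is read. The data are single cells of 8 transplanted left lungs, each taken 1 month after surgery, 20778 cells in all, with 1 mouse and 1 droplet library per graft. In 5 mice, called B6→B6, donor and recipient were both C57BL/6 (B6) mice, and in 3 mice, called HLA→B6, the donor, called HLA in the labels, was of a C57BL/6 line with a human HLA-A2.1 transgene and the recipient was B6. All were male and none received immunosuppression, and host cells that entered the graft are counted with donor cells. The grafts of HLA→B6 mice are the study's model of chronic rejection, and those of B6→B6 mice are its non-rejecting controls.

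Pulmonary surfactant is the film of lipid and protein that keeps alveoli from collapsing. Type 2 pneumocytes make it: Sftpb and Sftpc encode its small hydrophobic proteins, which spread the lipid at the air surface, and Sftpa1 and Sftpd encode collectins, which bind microbes and, in the case of Sftpa1, help to order the lipid. Secretoglobins are small proteins secreted into the airway lining. Scgb1a1 (club cell secretory protein, CC10) is the classical product of club cells, Scgb3a2 is made by airway secretory cells, and Scgb3a1 by secretory cells of larger airways. These transcripts are so abundant in the cells that make them that, when such cells break, their RNA is found in droplets with other cells.

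The values are counts of transcript molecules (unique molecular identifiers, UMIs) per gene and cell. Each mouse gave 868 to 6544 cells and 1669076 to 12445769 UMIs, with a median of 1356 to 1948 UMIs per cell. The authors describe removing free RNA with SoupX, for which they named Sftpc and Scgb1a1 among the genes that report it, and leaving out barcodes with fewer than 200 UMIs. In the deposited counts 17 cells hold fewer than 200 UMIs, the lowest 2. Whether SoupX had been applied to the counts in this table is not stated in the sources read here, so a 0 of Sftpc or Scgb1a1 below is a 0 in this table, and the part of SoupX in it was not tested. Libraries stand apart in 2 ways that touch these genes. First, 4 libraries, HLA→B6 replicate 2 with replicates 1, 2 and 3 of B6→B6, share more cell barcodes than the others do. The linked pairs among them have in common 39 to 160 barcodes, 2.89% to 11.9% of the smaller library, and 1014 cells in all have a barcode that occurs in more than 1 mouse. Second, B6→B6 replicate 4 holds a UMI of a member in 50.1% of its T and NK cells, against at most 8.71% in any other mouse. Values without these cells or this mouse are given beside the results they move most. HLA→B6 mice are numbered as in the deposited table of cells.

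Promoter sequences are shown for the 3 of the 7 genes that had an entry in the RefSeq promoter table of the GRCm38.p6 build. They are shown because the levels of Sftpb and Sftpa1 went together while Scgb3a1 was found mostly under other labels than the rest of its family. For Sftpb and Sftpa1, Pearson r was 0.92 over 69 sums of at least 10 cells of 1 cell type in 1 mouse, a description. Sftpc, Sftpd, Scgb1a1 and Scgb3a2 are named only. The 250 bases before the start site are printed 5′ to 3′, all 3 on the + strand, with capitals at every match to CTCAAG, the core bound by NKX2-1-type factors, and to CAAACA, a forkhead core, searched on both strands with overlaps allowed. The sequences are Sftpb at chr6:72304360-72304609, Scgb3a1 at chr11:49663345-49663594 and Sftpa1 at chr14:41131538-41131787.
Sftpb: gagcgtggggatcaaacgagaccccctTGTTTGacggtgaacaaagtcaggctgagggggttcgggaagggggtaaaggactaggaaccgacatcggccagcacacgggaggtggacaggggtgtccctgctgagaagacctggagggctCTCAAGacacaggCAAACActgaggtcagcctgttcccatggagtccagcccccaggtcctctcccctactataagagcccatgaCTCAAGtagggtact
Scgb3a1: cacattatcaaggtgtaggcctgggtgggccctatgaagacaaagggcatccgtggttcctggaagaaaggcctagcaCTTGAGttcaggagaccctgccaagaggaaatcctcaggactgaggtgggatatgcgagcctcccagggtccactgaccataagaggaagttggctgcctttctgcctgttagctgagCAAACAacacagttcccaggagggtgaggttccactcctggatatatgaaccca
Sftpa1: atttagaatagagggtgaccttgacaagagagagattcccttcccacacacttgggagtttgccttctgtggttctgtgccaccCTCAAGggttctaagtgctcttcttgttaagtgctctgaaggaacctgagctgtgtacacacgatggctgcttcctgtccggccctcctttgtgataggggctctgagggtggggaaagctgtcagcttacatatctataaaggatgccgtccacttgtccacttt
CTCAAG occurs at 100 to 95 and at 15 to 10 bases before the start of Sftpb, at 166 to 161 before that of Sftpa1 and, on the opposite strand, at 172 to 167 before that of Scgb3a1. CAAACA occurs at 87 to 82 bases before the start of Sftpb, on the opposite strand at 223 to 218, and at 54 to 49 before that of Scgb3a1. Of 32851 promoters of this length, 13.33% (4378) hold CTCAAG and 16.0% (5255) hold CAAACA, so either match is common and describes the letters only.

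The members differ widely in how many molecules were counted and in how many cells. Sftpc (ENSMUSG00000022097.4, chr14:70520949-70524081 in the GENCODE vM21 annotation, − strand) gave 66225 UMIs, 58.4% of all member UMIs, in 899 cells. Scgb1a1 (ENSMUSG00000024653.2, chr19:9083636-9087958, − strand) gave 31077 UMIs, 27.4%, in 2236 cells, so it was spread over more cells with fewer molecules. Sftpa1 (ENSMUSG00000021789.14, chr14:41131782-41136452, + strand) gave 8844 UMIs in 298 cells, Sftpb (ENSMUSG00000056370.15, chr6:72304610-72314371, + strand) 4295 in 385 cells, and Sftpd (ENSMUSG00000021795.10, chr14:41172214-41185149, − strand) 1611 in 145 cells. Scgb3a1 (ENSMUSG00000064057.12, chr11:49663610-49665118, + strand) gave 843 UMIs in 350 cells and Scgb3a2 (ENSMUSG00000038791.14, chr18:43764289-43767399, + strand) 467 in 106 cells. The cells labelled type 2 pneumocytes hold 92.0% of all Sftpc UMIs, 87.4% of Sftpb, 90.8% of Sftpa1 and 86.8% of Sftpd, but 0.103% of Scgb1a1, 0.119% of Scgb3a1 and 0 of Scgb3a2. No deposited label names a club cell, and the secretoglobin UMIs lie in cells labelled as something else.

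**Figure D1:**
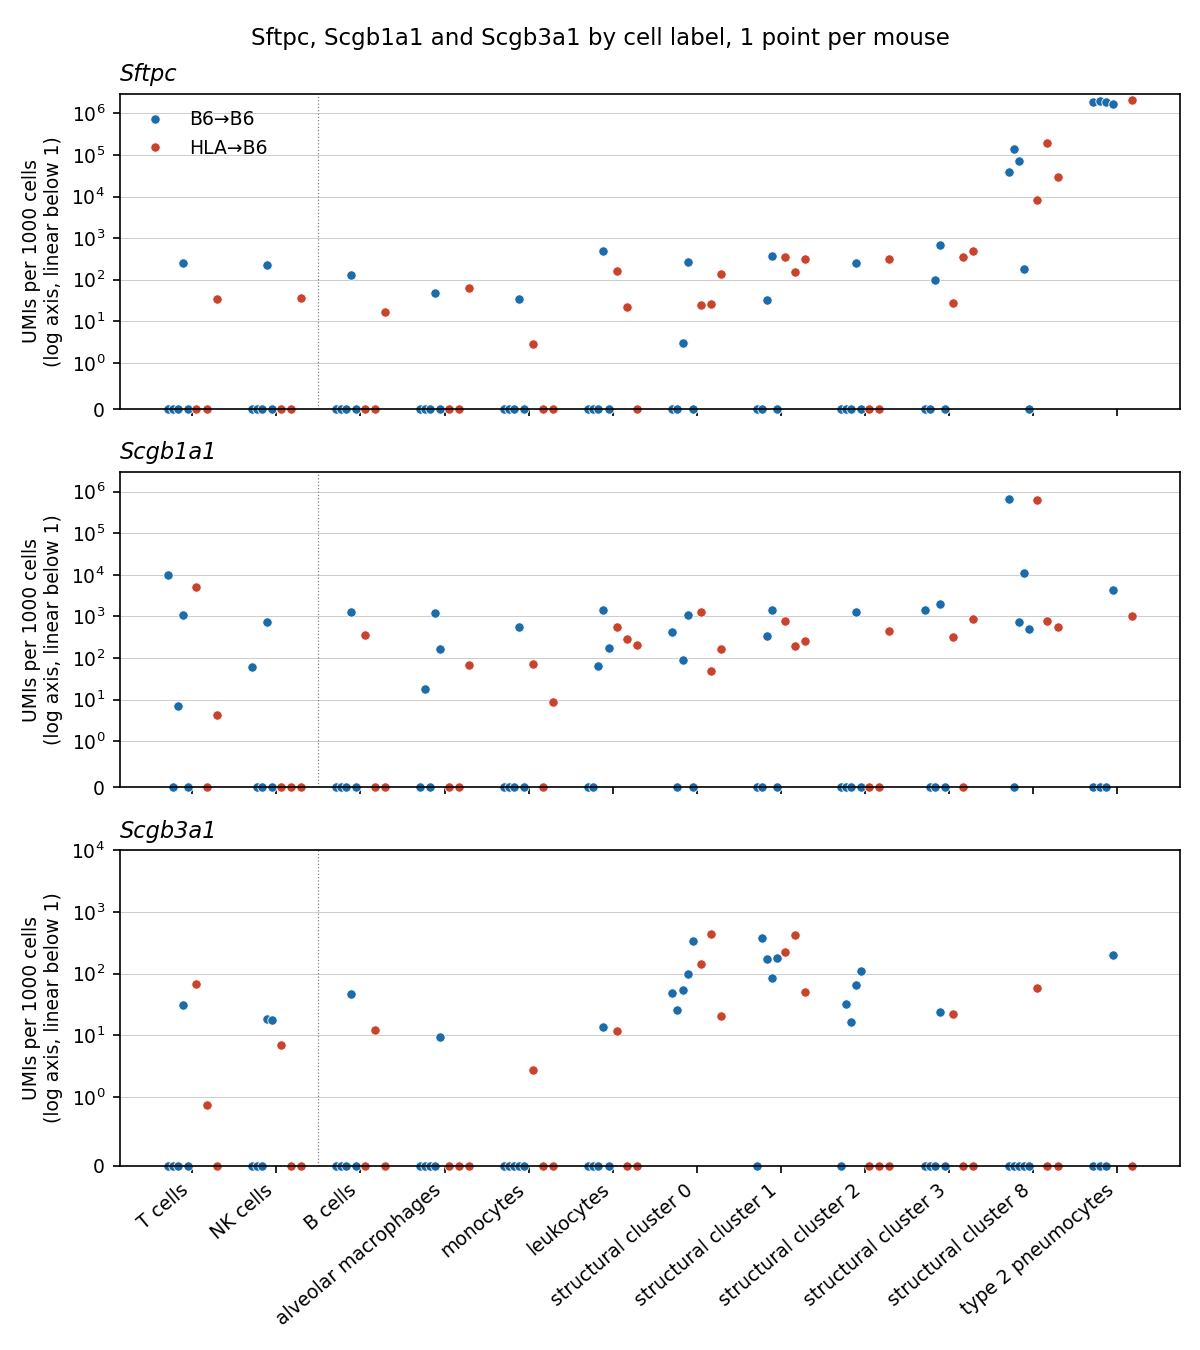
UMIs per 1000 cells (log axis, linear below 1) of Sftpc, Scgb1a1 and Scgb3a1 in each cell label and structural cluster, with 1 point per mouse (blue, B6→B6, and red, HLA→B6) and a dotted line after T and NK cells. Sftpc is highest in type 2 pneumocytes and next in cluster 8, Scgb1a1 reaches 664429 and 632176 in cluster 8 in B6→B6 replicate 1 and HLA→B6 replicate 1, and Scgb3a1 is above 0 in cluster 0 in all 8 mice and in cluster 1 in 7.

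Type 2 pneumocytes were few: 9, 1, 7, 5 and 0 cells in replicates 1 to 5 of B6→B6 and 10, 0 and 0 in replicates 1 to 3 of HLA→B6, 32 cells with a median of 6600 UMIs. Other genes of type 2 pneumocytes were also high in these cells. A list of 20 genes of type 2 pneumocytes and surfactant metabolism that holds no member, of which 19 were in the table, summed to 26935 counts per 1000000 UMIs (CPM) in these cells, with Napsa, the protease that processes surfactant protein precursors, at 2257 CPM (500 UMIs), Ctsh, another such protease, at 1228 CPM (272 UMIs), Scd1, a fatty acid desaturase, at 2515 CPM (557 UMIs) and Cebpa at 203 CPM (45 UMIs). The list of T cell genes stood at 22.6 CPM there.

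Within these cells Sftpc was 807 at the lowest, 1942 at the median and 3035 UMIs at the highest per cell, or 6.97%, 30.8% and 35.0% of all UMIs of the cell. Sftpa1 ranged from 67 over 221.5 to 700 UMIs (lowest, median and highest), Sftpb from 51 over 114 to 229 and Sftpd from 7 over 37.5 to 114, and none of the 4 was at 0 in any of the 32 cells. Together the 4 genes took 16.0% to 42.6% of a cell's UMIs, with a median of 37.1%. Scgb1a1 had a UMI in 6 of the cells, at most 9, Scgb3a1 in 1 cell with 1 UMI, and Scgb3a2 in 0 of 32 cells, which allows a share of up to 9.38%. The 4 surfactant genes therefore occurred together in every one of these cells and the secretoglobins in few of them.

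Per mouse, Sftpc took 305912, 313078, 231425 and 239161 CPM in the type 2 pneumocytes of B6→B6 replicates 1 to 4, the second of which has 1 such cell, and 300046 in HLA→B6 replicate 1. The only HLA→B6 mouse with type 2 pneumocytes lies within the range of the B6→B6 mice. With 1 mouse in a group, no test of the groups was made. Without the 11 cells (34.4%) whose barcode also occurs in another mouse, Sftpc made up 82.7% of the member UMIs of type 2 pneumocytes, against 82.2% with them.

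In Sftpa1 per Sftpc UMI, 1 of these cells stood apart from the rest. Sftpb per Sftpc was 0.0323 at the lowest and 0.0583 at the median, and Sftpd per Sftpc 0.00538 and 0.0181. Sftpa1 per Sftpc UMI was 0.0515 at the lowest and 0.118 at the median, and 0.212 in the second highest cell, but 0.867 in the highest. That cell, of B6→B6 replicate 3, held 700 Sftpa1 and 807 Sftpc UMIs, and it was also the highest in Sftpb per Sftpc (0.284, against 0.100 in the second highest) and in Sftpd per Sftpc (0.141, against 0.0716). Its barcode occurs in 2 further mice, in a cluster 8 cell of B6→B6 replicate 1 with 41 Sftpa1 and 49 Sftpc UMIs (0.837) and in a cluster 8 cell of B6→B6 replicate 2 with 34 and 41 (0.829). The same unusual ratio thus stands in 3 libraries under 1 barcode.

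That observation extends to the structural cells of cluster 8, which the deposited table names Krt8+ epithelial cells. The cluster has 68 cells, 7, 7, 8, 11 and 2 in replicates 1 to 5 of B6→B6 and 17, 9 and 7 in replicates 1 to 3 of HLA→B6, with a median of 661 UMIs, and the barcode of 23 of them (33.8%) occurs again in another mouse. Sftpc in the cluster summed to 268, 955, 566, 2 and 0 UMIs in B6→B6 replicates 1 to 5 and to 141, 1770 and 211 in HLA→B6 replicates 1 to 3. At least 10 Sftpc UMIs were found in 24 of the cells and none in 38. Of the 24, 18 share their barcode with a type 2 pneumocyte of another mouse: 8 in HLA→B6 replicate 2, 6 in B6→B6 replicate 2, 3 in B6→B6 replicate 1 and 1 in B6→B6 replicate 3. These cells held 41 to 268 Sftpc UMIs. With 1 further such cell of 57 UMIs in HLA→B6 replicate 1, the 19 pairs differ in total UMIs by 9.67-fold to 88.2-fold, with a median of 12.3-fold, the type 2 pneumocyte always the larger. All 11 type 2 pneumocytes that have a shared barcode have their partner in cluster 8. The 6 remaining cells, with 33 to 374 Sftpc UMIs and no partner, were 2 in B6→B6 replicate 3, 2 in HLA→B6 replicate 1, 1 in HLA→B6 replicate 2 and 1 in HLA→B6 replicate 3.

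**Figure D2:**
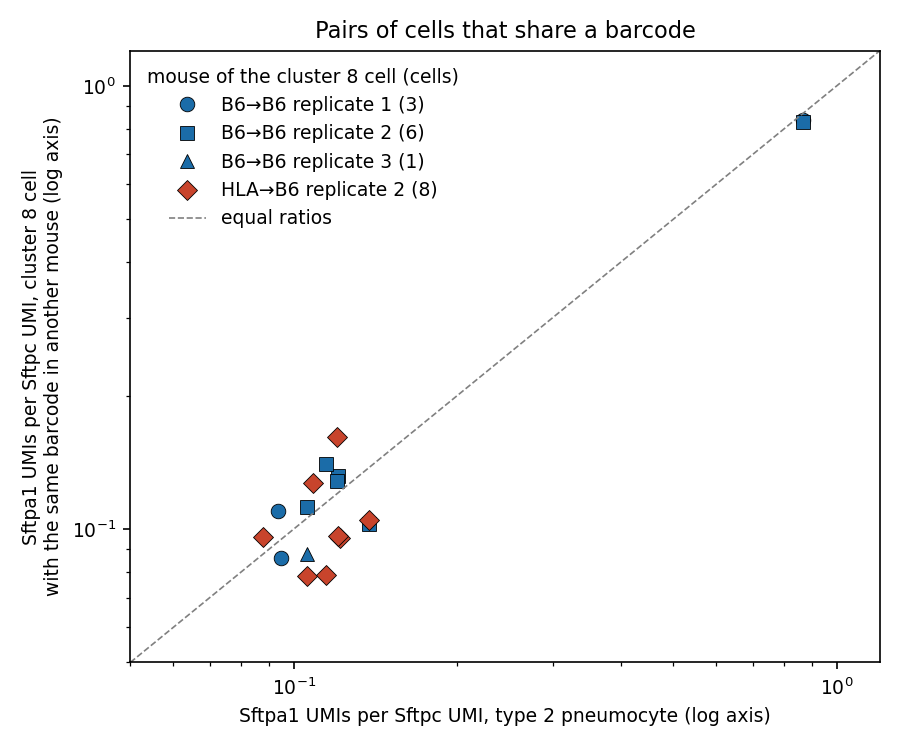
Sftpa1 UMIs per Sftpc UMI in 18 pairs of a type 2 pneumocyte (x axis, log) and a cluster 8 cell of another mouse with the same barcode (y axis, log) that has at least 10 Sftpc UMIs, 1 point per pair, with the dashed line marking equal ratios. The type 2 pneumocyte of some pairs is the same cell. Of the 18 pairs, 16 sit together at low ratios on both axes, and 2 pairs at about 0.87 on the x axis, both of the same type 2 pneumocyte of B6→B6 replicate 3, lie at 0.837 and 0.829 on the y axis.

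Without these cells the surfactant genes of 2 mice change most. In HLA→B6 replicate 2, which has no type 2 pneumocyte, 94.4% of 1818 Sftpc UMIs lay in cells whose barcode belongs to a type 2 pneumocyte of another mouse, and 102 lay outside them. In B6→B6 replicate 2 this share was 32.7% of 2920, with 1966 outside, and in each other mouse it was at most 1.57%. Some of these barcodes occur in more than 2 mice, and in every pair the type 2 pneumocyte held at least 9.67 times the UMIs of the cluster 8 cell.

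A surfactant-rich cell was defined here, with earlier results known, as one in which the 4 genes take at least 10% of its UMIs. There were 54 such cells, the 32 type 2 pneumocytes and 22 of cluster 8, with 12, 7, 9, 5 and 0 in replicates 1 to 5 of B6→B6 and 12, 8 and 1 in replicates 1 to 3 of HLA→B6, and they held 97.0% of all surfactant UMIs. The cell just inside the limit was at 14.7% and the one just outside at 8.99%. Of the 54, 30 share a barcode with another mouse, all 8 of HLA→B6 replicate 2 among them. In the 22 cluster 8 cells the list of other type 2 genes stood at 17208 CPM and the 12 general epithelial genes at 3592. In the 44 cells of cluster 8 that were rich in neither family the list of other type 2 genes stood at 2057, while ciliated cell genes summed to 13383, airway secretory genes to 10848 and type 1 pneumocyte genes to 7140 CPM. Of the cluster's cells, 12 held at least 10 UMIs of the ciliated list, with at most 54 Scgb1a1 and 0 Sftpc UMIs in a cell, and 15 held at least 10 UMIs of the type 1 list, with at most 2 Sftpc and 4 Scgb1a1 UMIs. Cluster 8 thus holds cells of several epithelial gene programs. That its surfactant-rich cells carry its Sftpc follows from how they were defined. The 19 cluster 8 cells that pair with type 2 pneumocytes of other mice are all among these 22.

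The cells rich in secretoglobins lay under other labels. With the same limit of 10% of a cell's UMIs, set after earlier results were known, 13 cells were secretoglobin-rich: 2 in B6→B6 replicate 1, 1 in B6→B6 replicate 2 and 10 in HLA→B6 replicate 1, and 0 in the other mice. They held 24690 UMIs, 76.2% of all secretoglobin UMIs, and none shares a barcode with another mouse. The deposited table labels 8 of them T cells, 2 structural cluster 0, 1 structural cluster 7 and 2 structural cluster 8. They had a median of 1227 UMIs from a median of 48 genes, and secretoglobins took a median of 88.4% and at most 97.1% of a cell. The lowest was at 33.5% and the nearest cell outside at 9.76%.

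The largest 2 were cluster 8 cells. One, of HLA→B6 replicate 1, held 10676 Scgb1a1 UMIs of 15030 in 1766 genes, with 33 UMIs of Scgb3a2, 24 of Sftpa1, 22 of Sftpb, 23 of Sftpd and 1 of Sftpc. The other, of B6→B6 replicate 1, held 4651 of 5587 UMIs in 422 genes. Among the 8 labelled T cells, the one in B6→B6 replicate 1 held 1735 Scgb1a1 UMIs of 1980, and the 7 in HLA→B6 replicate 1 held 180 of 219, 312 of 352, 333 of 428, 355 of 629, 1223 of 1333, 1366 of 1478 and 1849 of 1950. The cell with 355 also had 54 Scgb3a1 and 116 Scgb3a2 UMIs, and that with 333 had 24 and 32. Scgb1a1 was the leading gene in all 8.

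The T cell label of these 8 cells goes against their genes. The lists of T cell and of NK cell genes were at 0 UMIs in them, against 6933 CPM of the T list in the other T cells, whereas 20 airway secretory genes other than the members, 17 of them in the table, had 110 UMIs (13144 CPM) in all 8 cells, 4 to 37 in each. In the 13 cells together that list stood at 14947 CPM, with Cbr2, a carbonyl reductase of the airway epithelium, at 6852 CPM (215 UMIs), Hp, haptoglobin, at 2390 (75 UMIs) and Aldh1a1, a retinaldehyde dehydrogenase, at 765 (24 UMIs), and Ltf, lactotransferrin, at 0. The lists of T, NK and B cell and of alveolar macrophage genes were all at 0 in the 13 cells. Among all genes that are no member, Cbr2 had the most UMIs in the 13 cells, and Cyp2f2, a cytochrome P450 of club cells, had 78 UMIs in 10 of them, out of 309 in all 20778 cells. Most of the 13 lacked transcripts that nearly every cell has: 11 of them, all 8 labelled T cells included, had 0 UMIs of the 13 mitochondrial genes, as had 1.03% of the other 5063 T cells and 0 of the 32 type 2 pneumocytes, and the nuclear RNA Malat1 was found in 1 of the 13. What part this has in their label was not tested. Type 2 pneumocytes also carry Cbr2 (776 UMIs, 3503 CPM) and Hp (175 UMIs, 790 CPM), so these 2 genes do not separate the 2 kinds of cell.

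**Figure D3:**
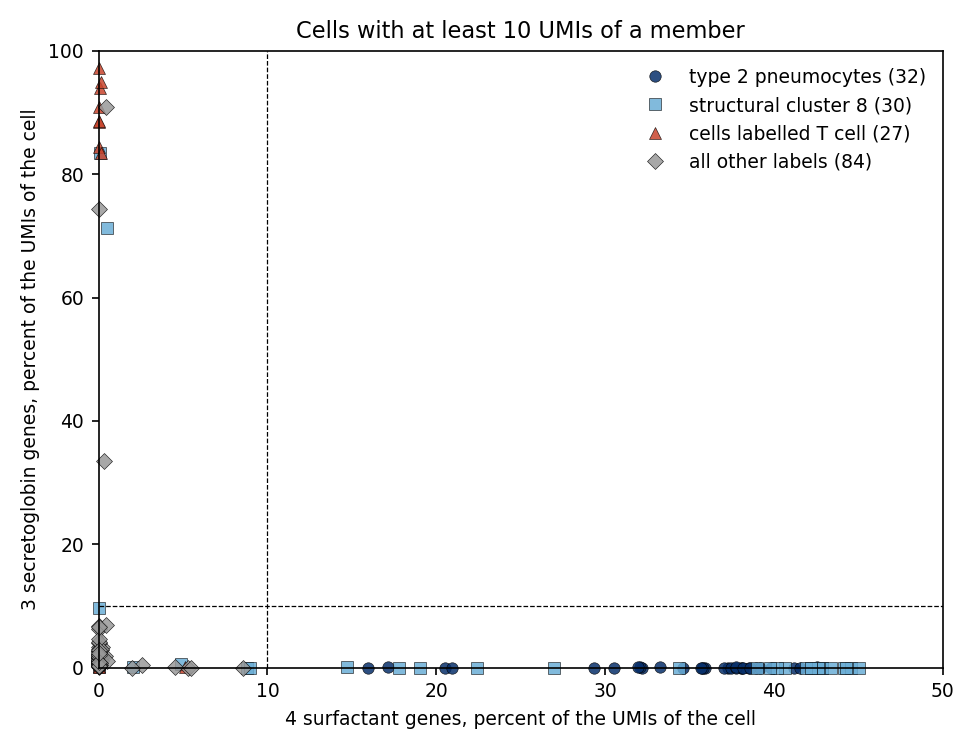
Share of a cell's UMIs from the 4 surfactant genes (x axis, percent) against that from the 3 secretoglobin genes (y axis, percent) for the 173 cells with at least 10 UMIs of a member, colored by deposited label, with dashed lines at 10%. Type 2 pneumocytes and the surfactant-rich cells of cluster 8 lie along the x axis at 14.7% to 45.1%, the 13 secretoglobin-rich cells rise along the y axis to 97.1%, and the remaining cells lie below both lines.

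Altogether 173 cells (0.833% of cells) had at least 10 UMIs of any member. They were the 32 type 2 pneumocytes, 81 structural cells, of which 30 in cluster 8 (44.1% of that cluster, 95% exact binomial interval 32.1% to 56.7%), 27 T cells, 11 cells labelled leukocyte, 10 B cells, 5 alveolar macrophages, 3 monocytes, 2 NK cells and 2 mast cells. In 26 of the 27 T cells the gene was Scgb1a1. Intervals here and below cover counting error only.

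In T cells and NK cells, which should lack all 7 transcripts, the levels differed widely between mice. Sftpc was at 0 UMIs in 6 mice, at 254.9 UMIs per 1000 cells in B6→B6 replicate 4 (416 UMIs in 1632 cells) and at 34.8 in HLA→B6 replicate 3 (10 UMIs in 287 cells). The mice at 0 include replicates 1 and 3 of B6→B6 and replicate 1 of HLA→B6, whose type 2 pneumocytes hold 16790, 12861 and 20882 Sftpc UMIs, and in the 1435 T and NK cells of HLA→B6 replicate 1 a count of 0 allows a share of cells with a UMI of up to 0.209%. Scgb1a1 was at 6308, 0, 5.41, 1028 and 0 UMIs per 1000 cells in B6→B6 replicates 1 to 5 and at 4045, 0 and 3.48 in HLA→B6 replicates 1 to 3. In B6→B6 replicate 1, 1 cell held 99.7% of these UMIs, and in HLA→B6 replicate 1 the top 5 cells held 5126 of 5805, whereas in B6→B6 replicate 4 the top cell held 5.61%.

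Cells with fewer than 10 UMIs of every member show the spread without such cells. In them Scgb1a1 stood at 21.8, 0, 5.41, 841 and 0 UMIs per 1000 T and NK cells in B6→B6 replicates 1 to 5 and at 82.8, 0 and 3.48 in HLA→B6 replicates 1 to 3. B6→B6 replicate 4 was thus alone in carrying Scgb1a1 in many T and NK cells: 50.1% of them had a UMI of at least 1 member, against 0% to 8.71% in the other 7 mice. Of its T cells (median 973.5 UMIs) 37.8% had a Scgb1a1 UMI and 16.7% a Sftpc UMI, or 26.0% and 10.4% with every cell thinned to 500 UMIs.

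The less abundant members were led by the same mice in T and NK cells, with exceptions. Sftpa1 was at 38.0 UMIs per 1000 cells in B6→B6 replicate 4, at 0 in the other B6→B6 mice and at 2.1, 1.6 and 17.4 in HLA→B6 replicates 1 to 3. Sftpb was at 14.5, 0, 0, 34.9 and 0 in B6→B6 replicates 1 to 5 and at 5.6, 1.6 and 38.3 in HLA→B6 replicates 1 to 3, so that HLA→B6 replicate 3, with 287 cells, was as high as B6→B6 replicate 4. Sftpd was at 14.1 in B6→B6 replicate 4, 1.4 in HLA→B6 replicate 1, 3.5 in HLA→B6 replicate 3 and 0 elsewhere. Scgb3a2 was at 58.0 in B6→B6 replicate 1, 14.1 in B6→B6 replicate 4 and 184 in HLA→B6 replicate 1, which are the mice with most secretoglobin, and at 0 in the other 5. Scgb3a1 was at 56.4 in HLA→B6 replicate 1, 29.4 in B6→B6 replicate 4, 4.9 in B6→B6 replicate 5, 0.8 in HLA→B6 replicate 2 and 0 in the other 4. All 7 members were at 0 in the 429 T and NK cells of B6→B6 replicate 2. Transcripts of other cells stood in another order among the mice: Hbb-bs, the beta globin of red cells, was at 1428 UMIs per 1000 T and NK cells in B6→B6 replicate 4 but also at 716 and 1091 in HLA→B6 replicates 2 and 3, and Lyz2, the lysozyme of macrophages, at 167, 259 and 143 in these 3 mice.

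**Figure D4:**
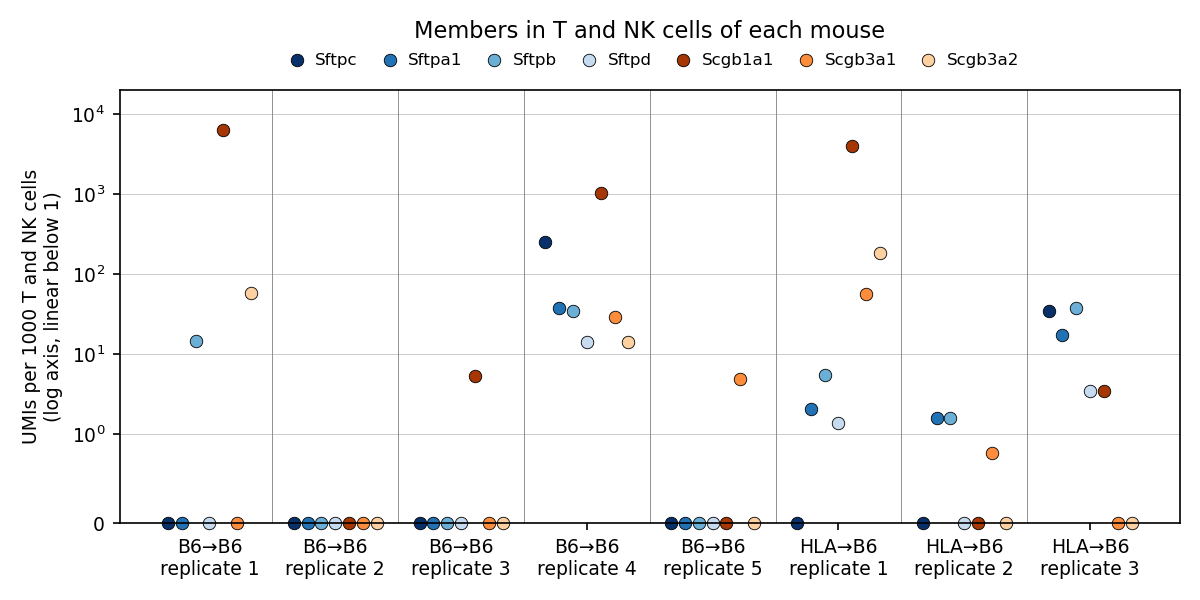
UMIs per 1000 T and NK cells of the 7 members in each of the 8 mice (log axis, linear below 1), 1 color per gene. B6→B6 replicate 4 carries all 7 genes, B6→B6 replicate 1 and HLA→B6 replicate 1 are highest in Scgb1a1 (6308 and 4045), and B6→B6 replicate 2 has none.

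The levels in T and NK cells were compared between the groups, mice as replicates, by a two-sided exact permutation test over all 56 splits, whose smallest possible p is 0.0179. Sftpc was 51.0 ± 114 UMIs per 1000 cells (SD, n = 5) in B6→B6 and 11.6 ± 20.1 (n = 3) in HLA→B6, with exact permutation p = 1.00, and without B6→B6 replicate 4 the difference (HLA→B6 minus B6→B6) turned from −39.4 to 11.6. Scgb1a1 was 1468 ± 2742 and 1350 ± 2335, with exact permutation p = 0.929, and without B6→B6 replicate 1 its difference turned from −119 to 1091. In cells with fewer than 10 UMIs of every member Scgb1a1 was 174 ± 373 and 28.8 ± 46.8 (n = 5 and 3), a difference of −145, with exact permutation p = 0.839. Scgb3a2 stood at 14.4 and 61.3 UMIs per 1000 cells, with exact permutation p = 0.554 (n = 5 and 3), and without HLA→B6 replicate 1 the difference turned from 46.9 to −14.4. None of the 7 exact permutation tests passed, and every adjusted p was 1.00. After adjustment over the 7 tests, a single gene at the smallest possible p could not have passed alone. The lack of a pass therefore does not show equal levels. The spread between mice of 1 group exceeded the difference between groups for both leading genes.

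In B6→B6 replicate 4 the makeup of the member UMIs in immune cells differed from that of type 2 pneumocytes. Its T and NK cells held 2306 member UMIs, of which Scgb1a1 made up 72.7%, Sftpc 18.0%, Sftpa1 2.69%, Sftpb 2.47% and Scgb3a1 2.08%. Scgb1a1 and Sftpc made up 82.2% and 8.47% in its B cells, 89.2% and 3.52% in alveolar macrophages, 94.3% and 5.75% in monocytes, 70.3% and 24.3% in cells labelled leukocyte, 70.2% and 18.2% in structural cluster 1 and 73.5% and 14.4% in structural cluster 2. In its type 2 pneumocytes they made up 0.22% and 83.9%. Scgb1a1 led in each of these immune labels and clusters and Sftpc in type 2 pneumocytes, and the share of Sftpc among the immune labels ranged from 3.52% to 24.3%. Without cells of 10 or more UMIs of a member, Scgb1a1 made up 70.4% in its T and NK cells.

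**Figure D5:**
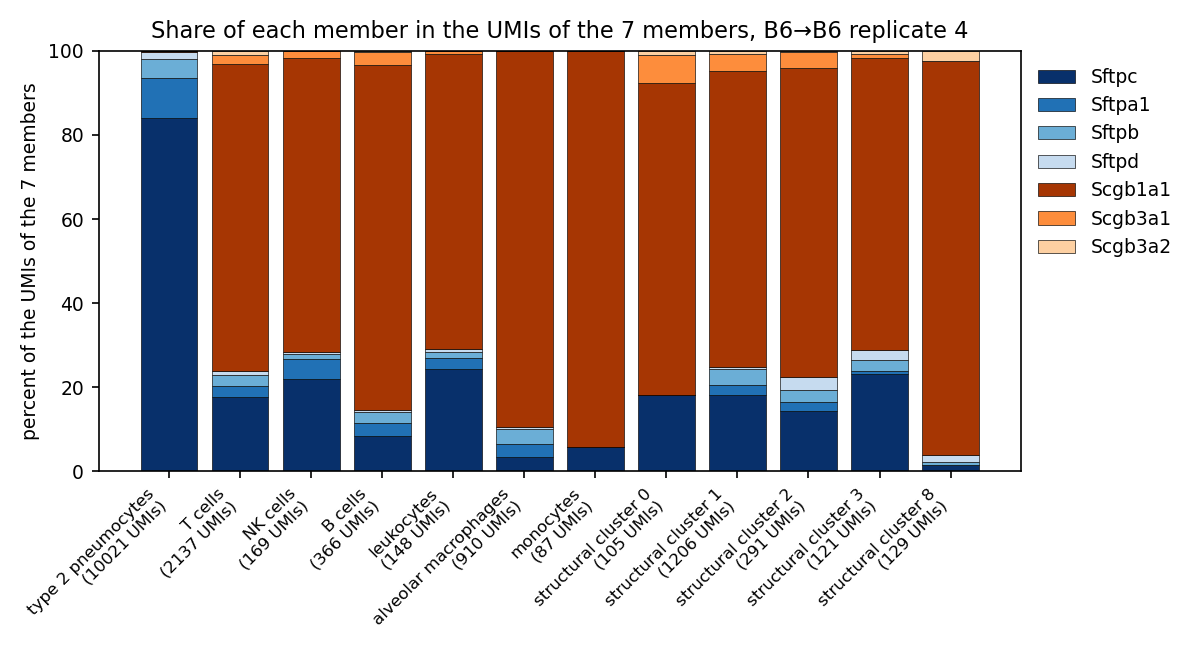
Percent of member UMIs from each of the 7 genes in B6→B6 replicate 4, as stacked bars by cell label and structural cluster. Scgb1a1 fills 69.4% (cluster 3) to 94.3% (monocytes) of the bars other than that of type 2 pneumocytes, and Sftpc fills 83.9% of the bar of type 2 pneumocytes.

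Each type was also set against the T and NK cells of the same mouse. Scgb1a1 had the higher value in structural cells in 8 of 8 mice, by a mean of 1712 UMIs per 1000 cells (SD 2870), with p = 0.00781 in an exact permutation of signs, the smallest it can give, and 0.0625 after adjustment over 8 tests. Sftpc had the higher value in 7 of 8 mice and was at 0 on both sides in 1, with a mean difference of 1543 (SD 2410), with exact permutation p = 0.0156 and adjusted p = 0.0625. Without the cells that share a barcode the Sftpc difference was 219.7, with 6 of 8 mice higher, exact permutation p = 0.0312 and adjusted p = 0.125. In cells with fewer than 10 UMIs of every member it was 55.8 and that of Scgb1a1 98.4, both with an adjusted p of 0.125 in exact permutations. Neither gene passed 0.05 after adjustment. With all cells, both p-values were the smallest that the mice could give, 1 mouse being equal on both sides for Sftpc. A larger difference in these mice would not have lowered them, so the lack of a pass does not show equal levels. The labels were made from the same counts, so these values describe the deposited labels. For Scgb1a1 the mean differences of B cells, alveolar macrophages and monocytes from T and NK cells were −1219, −1244 and −1344 UMIs per 1000 cells, with adjusted p between 0.333 and 0.571 in exact permutations. These 3 types had the lower value in 4, 3 and 4 of 8 mice and the higher value in 1, 4 and 1. Without cells of 10 or more UMIs of a member the differences of B cells and macrophages turned to 17.0 and 37.8. For Sftpc the differences were −17.7, −22.7 and −31.6, with at most 1 mouse higher in each type and adjusted p of 0.571 or 1.00 by the same exact permutation. No difference of these 3 immune types from T and NK cells passed. For Sftpc, 5 or 6 of the 8 mice were equal on both sides in each type, so these tests could not have passed.

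Structural clusters 1, 2 and 7 carry the name of epithelial cells but few transcripts of the general epithelial list. Clusters 0 (named MHC II+ endothelial cells), 1 and 2 (both named epithelial cells) held 16645, 14128 and 19789 CPM of 8 endothelial genes and 10, 28 and 8 of the 12 general epithelial genes, and cluster 7 (named epithelial cells) held 36227 of 5 platelet genes, 6790 of the endothelial and 58 of the epithelial ones. Type 1 pneumocyte genes stood at 581, 1072 and 444 CPM in clusters 1, 2 and 7 and at 557 in cluster 0. In T cells that were not secretoglobin-rich they stood at 56.02 CPM. The ciliated list stood at 769 CPM in cluster 2, against 17.61 in those T cells, but only 4 of its 12 genes had a UMI in cluster 2. The alveolar macrophage list stood at 4983 CPM in cluster 2, from 5 of its 10 genes. All these clusters are called by number here. In cluster 1 the share of cells with a Scgb1a1 UMI went with the mouse. It was 0%, 0%, 4.35%, 52.0% and 0% in replicates 1 to 5 of B6→B6 and 30.4%, 4.27% and 12.7% in replicates 1 to 3 of HLA→B6, and thinned to 500 UMIs it was 37.0% in B6→B6 replicate 4 and 24.3% in HLA→B6 replicate 1. The T cells of these 2 mice had 26.0% and 2.72% when thinned, at median depths of 973.5 and 1519 UMIs per cell against 1085.5 and 717 in cluster 1, and 37.8% and 4.53% before thinning. Sftpc stood at 0, 0, 32.6, 363.8 and 0 UMIs per 1000 cluster 1 cells in the B6→B6 mice and at 350.9, 152.4 and 322.0 in the HLA→B6 mice. The 350.9 of HLA→B6 replicate 1 includes the only 2 cluster 1 cells with at least 10 Sftpc UMIs. In these 2 cells the 4 surfactant genes took 8.53% of 434 UMIs and 4.53% of 928 UMIs. In HLA→B6 replicates 1 and 2 no T or NK cell had a Sftpc UMI while 9.01% and 11.6% of cluster 1 cells did, or 6.40% and 4.85% thinned, so cluster 1 carried Sftpc in libraries whose T and NK cells were at 0.

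Scgb3a1 was distributed unlike the other 6 members, an observation made after its values were seen. Structural cluster 0 held 45.6% of its UMIs, cluster 1 26.6% and T cells 14.8%, while type 2 pneumocytes and cluster 8 held 0.12% each. The 92 cells of cluster 7 had 29 of its UMIs, 20 of them in the secretoglobin-rich cell of B6→B6 replicate 2. In cluster 0 it stood at 49.0, 25.6, 53.6, 98.6 and 333.3 UMIs per 1000 cells in B6→B6 replicates 1 to 5 and at 144.5, 434.7 and 20.8 in HLA→B6 replicates 1 to 3. In cluster 1 it stood at 0, 384.6, 173.9, 84.7 and 176.5 and at 226.7, 426.8 and 50.8. B6→B6 replicate 4, the highest in Scgb1a1 per T cell without the rich cells, was at 98.6 and 84.7 there, and HLA→B6 replicate 2, in which Scgb1a1 was at 0 in T and NK cells, was the highest in both. In cluster 2, by contrast, Scgb3a1 was at 0 to 111.1 UMIs per 1000 cells and at 0 in the 3 HLA→B6 mice.

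Over all cells, Scgb3a1 was at 162 UMIs per 1000 cells in cluster 0 (exact Poisson interval 147 to 180), 166 in cluster 1 (145 to 190), 21.5 in T and NK cells and 0.401 in alveolar macrophages. The share of cells with a UMI of it was 6.43% in cluster 0, 6.76% in cluster 1 and 0.707% in T and NK cells, and 4.15%, 4.30% and 0.333% when thinned to 500 UMIs, at median depths of 1068.5, 886 and 1603 UMIs. Without the secretoglobin-rich cells, 326 UMIs remained in cluster 0, 224 in cluster 1 and 47 in T cells. The clusters were made from these counts, so the difference between them is given as a description with no test.

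In cluster 0 the cell with the most Scgb3a1 (58 UMIs) was secretoglobin-rich, with 123 Scgb1a1 and 11 airway secretory UMIs and none of the endothelial list. The other cells with the most Scgb3a1 in these clusters had endothelial genes and few general epithelial ones, as had nearly all cells without it there. In cluster 0, 32 cells of 4 mice had at least 3 Scgb3a1 UMIs and were not secretoglobin-rich. Of the cluster 0 cells of each mouse, they were 20 of 375 (5.33%) in HLA→B6 replicate 2 and 10 of 1225 (0.816%) in HLA→B6 replicate 1. In B6→B6 replicates 3 and 5 they were 1 of 336 (0.298%) and 1 of 18 (5.56%). All 32 had a UMI of the endothelial list, as had 2207 of the 2211 cluster 0 cells without Scgb3a1, at 10869 against 16837 CPM. A UMI of the general epithelial list was found in 1 of the 32 and in 24 of the 2211. In cluster 1, 28 cells of 7 mice met this limit. Most were in 3 mice: 8 of 602 (1.33%) in B6→B6 replicate 4, 8 of 164 (4.88%) in HLA→B6 replicate 2 and 7 of 322 (2.17%) in HLA→B6 replicate 1. The highest share was 7.69%, from 1 of 13 cells in B6→B6 replicate 2. All 28 had endothelial UMIs, as had 1241 of the 1256 cluster 1 cells without Scgb3a1, at 9320 against 14483 CPM. None of the 28 had a general epithelial UMI, and 35 of the 1256 did. Scrublet marked 0 of either set as doublets, 2 and 3 of them share a barcode with another mouse, and Scgb1a1 summed to 3 and 8 UMIs over the 32 and 28 cells, from which the limit on secretoglobin-rich cells had kept out cells with much Scgb1a1.

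The 2 groups of mice were then compared within cell types on UMI counts summed per mouse, by the quasi-likelihood test of edgeR over all genes with Benjamini-Hochberg adjustment. No member passed in any of 6 comparisons. In T cells, where 0.0698% of 7164 genes were called, only Scgb1a1 was counted often enough to be tested, with a log2 fold change (HLA→B6 over B6→B6) of −0.20 ± 2.03 (SE, adjusted p = 1.00 by edgeR). That value rests mostly on the 8 secretoglobin-rich cells labelled T cells, in B6→B6 replicate 1 and HLA→B6 replicate 1. Of 9103 Scgb1a1 UMIs under the T cell label, 1750 remained without them. In NK cells no member could be tested and 0% of 2987 genes were called by edgeR, with 97 at an unadjusted p under 0.05 and 0 called by DESeq2. In alveolar macrophages 12.3% of 5798 genes were called. The log2 fold change of Scgb1a1 there was −5.23 ± 2.01 (SE), with an unadjusted p of 0.0245 and an adjusted p of 0.111 by edgeR. Its level there was 1185 UMIs per 1000 macrophages in B6→B6 replicate 4, whose T and NK cells stood at 1028, and at most 161.9 in the other B6→B6 mice. The call depends on the fit: adjusted p was 0.0110 with no filter on low counts and 0.0107 with the set of linked libraries as a block, both by edgeR, and the log2 fold change was 0.31 with the replicate number as a block.

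In all structural cells together, where 0.604% of 8109 genes were called, the 7 members were tested and none passed. The log2 fold changes were −0.22 for Sftpc, 0.14 for Sftpb, −0.25 for Sftpa1, 0.35 for Sftpd, −0.57 for Scgb1a1 and 1.02 for Scgb3a2. That of Scgb3a1 was 1.34 ± 0.64 (SE), with an adjusted p of 0.631 by edgeR. The Sftpc sums behind this comparison were 829.7, 7142, 779.6, 333.3 and 0 UMIs per 1000 structural cells in replicates 1 to 5 of B6→B6 and 150.2, 2609 and 791.6 in replicates 1 to 3 of HLA→B6. The groups overlap, and the highest value of each group was in a mouse with cluster 8 cells of shared barcode. Without cells of shared barcode the log2 fold change of Sftpc was 1.15 and also did not pass.

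In cluster 0, where 0.686% of 3645 genes were called, the log2 fold change of Scgb3a1 was 1.78 ± 0.57 (SE), with an unadjusted p of 0.00508 and an adjusted p of 0.240 by edgeR. Scgb1a1 was at 0.57 there. In cluster 1, where 1.02% of 2348 genes were called, Scgb3a1 was at 1.40 ± 0.60 (SE, adjusted p = 0.598 by edgeR), Sftpc at 0.95 ± 0.55 (SE, adjusted p = 0.727 by edgeR) and Scgb1a1 at 0.05. The Scgb3a1 levels of the groups overlapped in both clusters, as the values per mouse above show. Scgb3a1 passed in cluster 0 and in cluster 1 when HLA→B6 replicate 3 was left out (2.12, adjusted p = 0.00741, and 1.86, adjusted p = 0.0304, by edgeR), and Sftpc passed in cluster 1 without B6→B6 replicate 4 (4.00, adjusted p = 0.00771 by edgeR), so the calls change with these 2 mice. With no filter on low counts Scgb3a1 also passed in cluster 0 (1.86, adjusted p = 8.0e-05 by edgeR).

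Other genes of the same programs were read from the fixed lists. In structural cells 7 genes of type 2 pneumocytes and surfactant metabolism, 5 airway secretory genes and 4 general epithelial genes could be tested, and 0 passed in either direction by edgeR, where 676 of all genes had an unadjusted p under 0.05. The values farthest from 0 were Scd1 at 0.94 and Chil1, a chitinase-like protein, at −1.21 on the log2 scale. In T cells 3 genes of the surfactant list were tested, Abca3, the lamellar body lipid transporter, Lpcat1, an enzyme of surfactant lipid synthesis, and Fasn, the fatty acid synthase, and none passed. In alveolar macrophages 7 genes of that list were tested, with a median log2 fold change of 1.27 against −0.03 over all genes tested. Ctsh (1.27, adjusted p = 0.00839 by edgeR) and Lpcat1 (1.91, adjusted p = 0.0348) were higher in HLA→B6, where 6.36% of all genes tested were, and none was lower. Of the general epithelial list, 3 genes were tested in macrophages and all 3 were lower in HLA→B6, as were 5.92% of all genes tested: Epcam (−3.89, adjusted p = 0.00774 by edgeR), Cdh1, encoding E-cadherin (−3.36, adjusted p = 0.0141), and Krt19, a keratin (−3.54, adjusted p = 0.0284). Over all macrophages the general epithelial list stood at 156 CPM, against 24.1 in T cells that were not secretoglobin-rich and 7.42 in NK cells. Whether macrophages make these transcripts was not tested. In the same macrophages 5 of the 10 genes of an alveolar macrophage list were lower and 0 higher, with a median of −1.97, and the part of this in the values above was not tested. A lower number of cells that carry a transcript and less of it per cell cannot be told apart in these sums.

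Genes whose levels went most like those of Sftpc and Scgb1a1 were read from 69 sums of 1 cell type in 1 mouse, each of at least 10 cells. Pearson correlations of log2(CPM + 10) were taken over 11594 genes. Type 2 pneumocytes entered from HLA→B6 replicate 1 only, which had 10 of them. The sums share libraries, so r is a description. Sftpa1 (r = 0.94) and Sftpb (0.88) were nearest to Sftpc, followed by AU021092 (0.87), Wfdc2, a secreted protease inhibitor of epithelia (0.86), and Gas6, a ligand of TAM receptors (0.85). For Scgb1a1 the values were lower, with Scgb3a2 first (0.70), then Gpx3, a secreted glutathione peroxidase (0.68), Epas1, encoding HIF-2α (0.68), Bgn, the proteoglycan biglycan (0.66), and Ppp1r14a (0.65). Scgb3a1, added after its values were seen, went with none of the members among its first 5, which were Jag2, a Notch ligand (0.86), Hoxa3 (0.85), Spry4, an inhibitor of receptor tyrosine kinase signaling (0.84), 2700081O15Rik (0.84) and Plat, encoding tissue plasminogen activator (0.84).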

How the data were processed

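Single cells of 8 lung grafts were measured by droplet 3′ RNA sequencing, with 10000 cells loaded for each. The deposited counts are whole UMIs per gene and cell, made by the authors with Cell Ranger on mm10 (GRCm38), with labels from Seurat clustering. Values are not normalized, all 20778 cells were kept, and 0 columns of values were left unused. Scrublet (expected rate 0.06) marked 258 cells (1.24%) as doublets, which were left out only as an alternative. Groups came from the sample labels, and the mouse was the replicate, so p-values measure the spread between mice.

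Sums per mouse and type with at least 10 cells were compared by edgeR 4.0.16 (TMM, filterByExpr with a minimum count of 10, quasi-likelihood F test, adjusted p under 0.05) in R 4.3.3. Levels were compared by exact permutation in Python 3.11.15 (scipy 1.17.1). Levels are UMIs per 1000 cells, the share of cells with a UMI was also computed at 500 UMIs per cell. Intervals are exact binomial or exact Poisson at 95%, and a count of 0 was read as at most 3 counts. The genes named by rule are the 7 members, the up to 4 genes with most UMIs of each fixed list and, by likeness, the 5 nearest to Sftpc and to Scgb1a1. Other genes of the lists, the 5 nearest to Scgb3a1 and Malat1 were chosen after their values were seen. The members and lists were chosen with earlier results of these data known. In simulated counts with 200 genes changed 4-fold, edgeR recovered 155 (cluster 0) to 190 (structural cells) of them, and with no change it made 0 calls in each comparison. The changed genes were drawn from those with more UMIs, and every gene was given the same dispersion between mice. These settings were not matched to the 7 members, so the recovery does not give the power to find a change in them.

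Alternatives were DESeq2 1.42.0, a minimum of 20 cells per mouse, no filter on low counts, cells with at least 500 UMIs, no doublets, no cells of shared barcode, blocks of replicate number or library set, and each mouse left out. Cells with fewer than 10 UMIs of every member, and cells with at least 10% member UMIs, were alternatives added after the data were seen.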

Additional observations from a re-analysis of the deposited data

Results flagged for a closer look

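Within the 5 B6→B6 mice, 24 of 30 sets of 5 values held 1 mouse whose gap to the next exceeded Dixon's 95% limit, where chance gives about 1 in 20 for normally distributed values. These counts are not such values: in 14 of the 24 the other 4 mice were at 0, where 1 UMI is enough to pass the limit. In 16 of the 24 that mouse was B6→B6 replicate 4, all in immune cells. In its T and NK cells Sftpc stood at 254.9, Sftpa1 at 37.99, Sftpd at 14.09 and Scgb3a1 at 29.41 UMIs per 1000 cells. In its B cells Scgb1a1 stood at 1270, Sftpc at 130.8, Sftpa1 and Scgb3a1 at 46.41 each, and Sftpd and Scgb3a2 at 4.219 each. In its alveolar macrophages Scgb1a1 stood at 1185, Sftpc at 46.72, Sftpd at 7.299 and Scgb3a2 at 1.460, and in its monocytes Scgb1a1 stood at 554.1 and Sftpc at 33.78. Several of these rest on 1 to 5 UMIs, such as the 4.219 and 1.460 UMIs per 1000 cells.

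B6→B6 replicate 1 was apart in Scgb1a1 (6308) and Scgb3a2 (57.97) of T and NK cells and in Scgb1a1 of structural cells (14743), values that 1 secretoglobin-rich cell in each decides. B6→B6 replicate 2 was apart in structural cells in Sftpc (7142), Sftpb (320.9), Sftpa1 (1090) and Sftpd (194.0), where 6 of its 7 cluster 8 cells share a barcode with type 2 pneumocytes of other mice. B6→B6 replicate 5 was apart in Scgb3a1 of alveolar macrophages (9.524), from 1 UMI.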

How the results depend on the processing

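No filter on low counts gave 2 calls in NK cells (Sftpc and Scgb1a1), 1 in alveolar macrophages (Scgb1a1, −5.22) and 2 in cluster 0 (Scgb3a1, 1.86, adjusted p = 8.0e-05 by edgeR, and Scgb3a2). The library set block gave 1 call in alveolar macrophages (Scgb1a1, −5.02). Leaving out each mouse gave 0 to 1 calls in cluster 0 and 0 to 1 in cluster 1. Counts of 173 cells with at least 10 UMIs of a member became 460 at 5 UMIs, 104 at 20 UMIs and 67 at 10% of UMIs, and Scgb1a1 in B6→B6 replicate 4 made up 70.4% of member UMIs in place of 72.7% in cells low in every member. Of values that answer a comparison 131 were rated the same as in the main setting and 13 moved. These include counts of calls, counts of cells and shares, which have no direction or side of a threshold. The 131 therefore do not show that directions held. Of the other values 419 were rated the same, 61 reversed, 8 became calls and 1 moved. The cause was not tested.

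With the replicate block, 1 member passed in cluster 0 (Scgb1a1, 1.46, adjusted p = 0.0270 by edgeR) and 1 in cluster 1 (Sftpc, 3.91, adjusted p = 0.000447), Scgb1a1 in alveolar macrophages turned to 0.31 and Sftpb in structural cells to −0.045. The labels share numbers 1 to 3 between the groups and do not say what a number stands for, and deviations of same-numbered mice correlated between −0.247 and 0.324, so the numbers were not taken to pair the mice.

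Reversed log2 fold changes, none called, were these. With the library set block Scgb1a1 was at 0.28 in T cells, 0.54 in structural cells, −0.59 in cluster 0 and −0.11 in cluster 1, and Sftpc and Sftpa1 in structural cells were at 0.98 and 0.78. Sftpc and Sftpa1 there were at 0.80 and 1.05 in cells of at least 500 UMIs, at 1.15 and 1.18 without shared barcodes and at 0.46 and 0.42 in cells low in every member. In such low cells Scgb1a1 was at −0.48 in cluster 0 and −0.088 in cluster 1. In cluster 1 it was at −0.71 with at least 20 cells per mouse, −0.12 without doublets and −0.16 without shared barcodes.

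Leaving out each mouse moved Scgb1a1 from −11.18 to 0.40 in T cells, −4.01 to 1.46 in structural cells, −1.88 to 1.54 in cluster 0 and −0.90 to 1.66 in cluster 1. In structural cells it moved Sftpc from −1.37 to 1.56, Sftpb from −0.42 to 0.94, Sftpa1 from −0.76 to 1.39, Sftpd from −0.11 to 1.40 and Scgb3a2 from −0.26 to 1.45. For Sftpc and Sftpa1 the largest value came without B6→B6 replicate 2 and for Scgb1a1 without B6→B6 replicate 1.

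The differences in T and NK cells (HLA→B6 minus B6→B6, UMIs per 1000 cells) reversed for Sftpa1 in T cells only (1.33) and between medians (2.09), for Sftpd between medians (1.39), for Scgb1a1 in CPM (7.83), for Scgb3a1 in low cells (−4.48) and NK cells only (−4.90), and for Scgb3a2 in low cells (−3.33). Leaving out each mouse gave −52.1 to 11.6 for Sftpc, −6.31 to 12.1 for Sftpb, −5.76 to 7.03 for Sftpa1, −2.12 to 1.63 for Sftpd, −1466 to 1091 for Scgb1a1, −6.47 to 21.8 for Scgb3a1 and −14.4 to 77.6 for Scgb3a2. Against NK cells only, the difference of Scgb1a1 was 105.6 in B cells and 80.5 in alveolar macrophages. Against low T and NK cells it was 17.0 and 37.8. That of Sftpc in alveolar macrophages ranged from −29.7 to 3.81 with each mouse left out.

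With 5 and 3 mice, few type 2 pneumocytes and medians of 1356 to 1948 UMIs per cell, depth and the number of mice limit what these tests can show. Members at 0 in immune cells were not detected in these counts, and the parts of depth and of SoupX in this were not tested.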
